A study of Mus musculus with 15 samples.

Results

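The 94 genes described here encode subunits of the oxidative phosphorylation complexes, out of 15932 genes counted in single cells of the mouse striatum. They were chosen by symbol, with earlier results of these data known. 13 are the protein-coding genes of the mitochondrial genome, and 81 are nuclear genes of complexes I to V (Nduf, Sdh, Uqcr, Cox and Atp5 symbols, without pseudogenes). The cells came from 15 C57BL/6J mice (males of a widely used inbred strain), bought at 8 weeks of age and habituated for about 1 week. 5 mice received haloperidol, a dopamine receptor blocker, from an implanted pellet, 5 received olanzapine, a blocker of serotonin and dopamine receptors, in food, and 5 received placebo, for 28 to 29 days. Route and drug therefore differed together and cannot be told apart. Each mouse was 1 library of droplet-based 3′ single-cell RNA-seq, in which every captured RNA carries a unique molecular identifier (UMI). Replicate numbers below only name a mouse.

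Oxidative phosphorylation passes electrons from NADH and succinate through complexes I to IV to oxygen, and complex V uses the resulting proton gradient to make ATP. Except for complex II, which is wholly nuclear, each complex joins subunits made inside the mitochondrion with subunits imported from the cytosol, so its assembly draws on both genomes. Neurons are known for a high demand on this pathway, while astrocytes are known for strong glycolysis.

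The 5581 deposited cells held 18826661 UMIs, from 80 to 1189 cells and 241677 to 4329163 UMIs per mouse. Loading had been set at 500 cells, and 4 mice had more deposited cells than that. The deposited classes were astrocyte (1620 cells), neuron (988), microglia (895), neuroblast (709), other (549), oligodendrocyte (462) and olig precursor (358). Marker genes fitted the labels for neurons (Snap25), neuroblasts (Dcx), astrocytes (Aldoc) and microglia (P2ry12). The class labelled olig precursor had 8240 CPM (UMIs scaled to a common total of each class) of the myelin gene Mbp, against 370.6 in the class labelled oligodendrocyte, and the latter carried the precursor gene Pdgfra at 898.3 against 0.7. Both are written below with their labels, although the markers run the other way. The class other held the endothelial gene Cldn5 at 3761 CPM. Before the library suffix was added, 223 barcode sequences occurred in more than 1 mouse, and 0 cells were identical. Haloperidol 1, haloperidol 2, olanzapine 1 and olanzapine 2 had the fewest cells (80 to 128). These are the mice numbered 1 to 4 in the labels, and none of them received placebo. In olanzapine 3, 2 cells, labelled neuron and astrocyte, were mostly haemoglobin UMIs.

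Mitochondrially encoded genes made up 3.38% of all UMIs (636617) and the nuclear members 2.76% (519107). The 2 genomes ranked the cell classes differently. The mitochondrial share was highest in the class labelled olig precursor (5.48% ± 0.766, SD, n = 10 mice with at least 10 such cells), in neurons (4.96% ± 1.36, n = 15) and in astrocytes (4.47% ± 1.02, n = 15). It was 2.56% ± 0.259 in the class other (n = 13), 2.34% ± 0.488 in neuroblasts (n = 14), 2.21% ± 0.365 in the class labelled oligodendrocyte (n = 11) and 1.52% ± 0.289 in microglia (n = 13). The first 3 classes overlapped in their spread, and so did the class other, neuroblasts and the class labelled oligodendrocyte.

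The nuclear share spanned a smaller range, with neurons at the top (3.44% ± 0.769) and microglia at the bottom (1.57% ± 0.220). Neuroblasts (2.95% ± 0.142) came next to neurons, and the class labelled olig precursor (2.44% ± 0.221) was the second lowest. Mitochondrial UMIs per nuclear member UMI, as means of the ratios of single mice, were 2.26 ± 0.413 in the class labelled olig precursor and 0.794 ± 0.173 in neuroblasts. They were 1.82 ± 0.944 in astrocytes (median 1.54, highest mouse 4.91) and 1.63 ± 0.990 in neurons (median 1.25, highest mouse 4.07).

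Within single mice some pairs of classes kept their order and others did not. The mitochondrial share was higher in neurons than in astrocytes in 11 of 15 mice. It was higher in neurons than in the class labelled olig precursor in 3 of 10. Neuroblasts were above the class labelled oligodendrocyte in 8 of 11. Other pairs were steadier. The mitochondrial share was higher in neurons than in neuroblasts in 14 of 14 mice, with a median ratio of 2.12, and lower in neuroblasts than in astrocytes in 14 of 14, with a median ratio of 0.575. The nuclear share, in contrast, was higher in neuroblasts than in astrocytes in 11 of 14. Between the pair of oligodendrocyte-lineage classes, the mitochondrial share was higher in the class labelled olig precursor in 9 of 9 mice, while its nuclear share was lower in 8 of 9. Microglia were lowest in both genomes in every mouse with both classes. These are descriptions of classes that had been drawn on the same counts, so no test was made between classes.

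**Figure D1:**
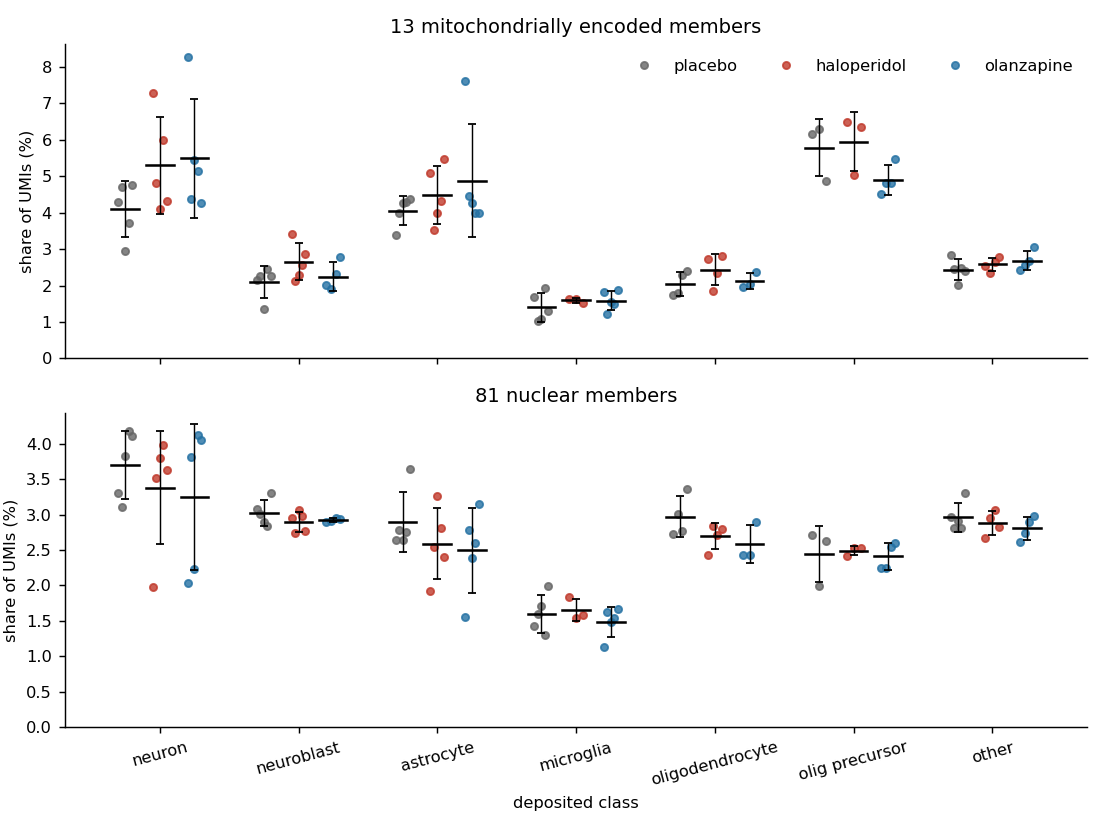
Percentage of UMIs from the 13 mitochondrially encoded genes and from the 81 nuclear members, by deposited cell class. Each point is 1 mouse with at least 10 cells of that class, and the line marks the mean. Neurons and the class labelled olig precursor sit high in the mitochondrial panel, whereas only neurons stand high in the nuclear one.

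The mitochondrial genome is packed, and several of its genes share bases. Overlaps on the same strand matter for these counts because a read within them cannot be given to a single gene. Of the 4 overlaps, 3 are printed with 30 bases on either side. They are read from the plus strand of chromosome M (GRCm38), with the shared bases in capitals.
mt-Atp8/mt-Atp6, 43 shared bases, chrM:7897-7999: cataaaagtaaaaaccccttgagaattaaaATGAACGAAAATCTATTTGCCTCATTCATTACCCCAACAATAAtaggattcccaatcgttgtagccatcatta
mt-Nd4l/mt-Nd4, 7 shared bases, chrM:10137-10203: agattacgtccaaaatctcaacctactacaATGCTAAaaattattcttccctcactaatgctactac
mt-Nd5/mt-Nd6, 14 shared bases on opposite strands, chrM:13522-13595: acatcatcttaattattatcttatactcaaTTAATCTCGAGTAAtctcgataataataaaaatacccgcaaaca

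The overlap not printed is 1 base, at chrM:8607, between mt-Atp6 and mt-Co3. In each of the first 2 pairs the capitals begin with the start codon ATG of the second gene and end with the stop codon TAA of the first, and both genes of a pair are known to leave the mitochondrion's processing machinery as 1 RNA. Levels within these pairs are therefore uncertain. 3 genes end without a complete stop codon in the DNA. A single T stands at their 3′ end, and the poly(A) tail is known to finish the codon. Their last 30 bases, with that T in capitals, are as follows.
mt-Co3, chrM:9361-9390: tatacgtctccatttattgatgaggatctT
mt-Nd4, chrM:11515-11544: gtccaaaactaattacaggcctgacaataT
mt-Cytb, chrM:15259-15288: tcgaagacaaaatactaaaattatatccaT

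In CPM per kilobase of gene, over all cells of a mouse, the 13 genes differed widely. A captured RNA carries 1 UMI whatever its length, so dividing by length sets part of the order. Ranks and ties below hold for that scale only. mt-Atp6, a proton channel subunit of complex V, was highest at 12278 ± 1863 (SD, n = 15), followed by mt-Co3 at 7803 ± 1821, both in 15 of 15 mice. The complex IV subunit mt-Co2 (4454 ± 1011) and the complex I subunit mt-Nd1 (4397 ± 1063) did not differ beyond their spread, with mt-Co2 higher in 10 of 15 mice. mt-Cytb, the 1 mitochondrially encoded subunit of complex III (3398 ± 737), and mt-Co1, the catalytic core of complex IV (3199 ± 516), were likewise level, with mt-Cytb higher in 8 of 15.

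mt-Nd4 followed at 2005 ± 491, then mt-Nd2 at 1232 ± 473 and mt-Nd3 at 1044 ± 641. mt-Nd4l (779 ± 195) and mt-Atp8 (777 ± 290), the upstream genes of the second and first pair, could not be ordered. mt-Nd5 (176 ± 45.1) and mt-Nd6 (72.5 ± 21.9) were lowest, and mt-Nd6 is the gene on the minus strand. A 3′ assay counts where poly(A) tails are primed, so these are levels of captured tails, not of protein. In UMIs summed over all mice, without division by length, mt-Atp6 (150303) and mt-Co3 (109536) were still highest and mt-Nd6 (665) lowest. The order of other genes changed. mt-Co1 (89873) came next after mt-Co3, above mt-Nd1 (73673), mt-Cytb (69493) and mt-Co2 (54259). mt-Nd5 (5604) stood above mt-Nd4l (4089) and mt-Atp8 (2516).

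**Figure D2:**
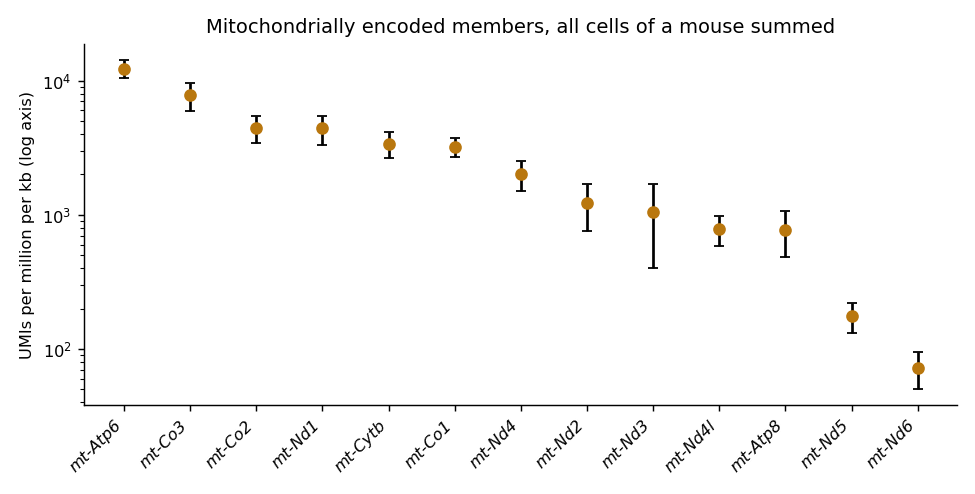
Level of each of the 13 mitochondrially encoded genes, in CPM per kilobase over all cells of a mouse, on a log axis. Points are means over the 15 mice and bars their SD. mt-Atp6 is highest and mt-Nd6 lowest.

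The make-up of the mitochondrial RNA differed between classes as well as its amount. mt-Co1 held 17.6% ± 1.89 of the mitochondrial UMIs in astrocytes (lowest 14.9%, median 17.2%, highest 21.0%, n = 15) and 10.8% ± 1.38 in neurons (lowest 8.43%, median 11.1%, highest 13.0%, n = 15). Every astrocyte value lay above every neuron value. mt-Nd1 ran the other way, with 7.84% ± 1.18 in astrocytes (5.82% to 9.79%) and 15.0% ± 1.26 in neurons (13.2% to 17.2%), again without overlap. Microglia resembled neurons in mt-Nd1 (15.6% ± 2.22) and the class labelled olig precursor resembled astrocytes in mt-Co1 (16.7% ± 1.44). mt-Atp6 by comparison stayed between a mean of 21.2% in microglia and 25.9% in the class other.

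Among the nuclear members, 32 of 81 had their highest mean level in neurons, 17 in neuroblasts, 14 in the class other, 9 in the class labelled oligodendrocyte, 7 in astrocytes and 2 in the class labelled olig precursor. Summed complex I subunits were highest in neurons (13996 ± 3178 CPM, n = 15) against 8900 ± 652 in neuroblasts (n = 14). Summed complex V subunits were highest in neuroblasts (8087 ± 468) against 6642 ± 1392 in neurons. The catalytic subunits of the ATP synthase followed that order, with Atp5b at 737 ± 108 CPM in neuroblasts and 572 ± 148 in neurons, and Atp5a1 at 509 ± 93.8 and 333 ± 53.2. Those spreads overlapped for Atp5b.

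Isoforms separated the classes more sharply than complexes did. Ndufa4, an accessory subunit now placed in complex IV, stood at 2318 ± 766 CPM in neurons, while the other 6 classes had means from 293 (microglia) to 963 (class labelled oligodendrocyte). Its lowest neuron value, 870.3, lay within the range of the class labelled oligodendrocyte, so the groups of mice were not fully apart. Atp5g1, Atp5g2 and Atp5g3 encode the same mature c subunit of the ATP synthase ring with different import signals. In neurons Atp5g1 was at 469 ± 130 and Atp5g2 at 230 ± 62.4, whereas in neuroblasts Atp5g2 was at 624 ± 115 and Atp5g1 at 402 ± 60.1. Atp5g2 did not overlap between the 2 classes, with neuron values up to 357.2 and neuroblast values from 460.3.

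Cox7a2l is known for a part in joining complexes III and IV into supercomplexes, and C57BL/6J mice are known to carry a short allele in which that function is impaired. It had means of 605 ± 129 in neuroblasts, 550 ± 95.7 in microglia and 442 ± 88.2 in the class other. Astrocytes had 134 ± 56.6. Microglia, lowest in the sum of nuclear members, were thus near the top for this gene. Cox8a was highest in astrocytes (1199 ± 252), and Cox7a1 and Cox6b2, known as muscle and testis forms, had means of at most 10.5 and 35.1 CPM in any class.

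Cox4i2, the isoform of complex IV subunit 4 known from lung and vascular cells, was highest in the class other. Of its 801 UMIs, 612 lay in that class and 181 in astrocytes, in 145 of 1620 cells from 14 mice. It stood at 345 ± 72.4 CPM in the class other (lowest 168.8, n = 13), at 36.5 ± 16.2 in astrocytes, and at a mean of at most 1.31 elsewhere. The general isoform Cox4i1 ranged only from 744 to 1273. The 142 cells of the class other with at least 2 Cox4i2 UMIs, from 15 mice, carried more of the mural cell genes Vtn (9065 against 2077 CPM in its remaining cells without a Cox4i2 UMI), Rgs5 (3840 against 616) and Kcnj8 (885 against 74). Cldn5 was lower in them (2270 against 5260). Ndufa4l2, a relative of Ndufa4 outside the member list, was at 1418 against 188. Their mitochondrial share was 2.68% against 2.40% and higher within 10 of 15 mice, and their nuclear share without Cox4i2 was 3.01% against 2.71% and higher within 13 of 15. They were also deeper, with a median of 3310.5 UMIs against 1844. The 44 cells of the class without Cox4i2 and with at least 4000 UMIs (median 5988) had shares of 2.72% and 2.82%, so the mitochondrial share was not higher than in these deep cells.

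Cox6a2, the isoform of subunit 6A known from heart and skeletal muscle, was concentrated in a few neurons. Of 541 UMIs in all, 507 lay in 33 of 988 neurons (3.34%, at a class median of 3306.5 UMIs per cell). For background, 6 of 1620 astrocytes (0.370%, median 2221 UMIs) and 22 of 895 microglia (2.46%, median 3430 UMIs) held a Cox6a2 UMI, with at most 2 UMIs in any of them against up to 73 in a neuron. The 22 neurons with at least 2 UMIs came from 8 mice. They held 472 CPM of Pvalb, which marks fast-spiking interneurons, against 1.0 in the 955 neurons without Cox6a2, and 1138 against 13.1 of Kit. Pvalb, Kit and Cox6a2 had been listed as interneuron markers together with Sst, Npy and Chat, with earlier results of these data known. Over all neurons, Sst was at 3978 CPM, Npy at 3288, Kit at 61.0, Pvalb at 20.3 and Chat at 9.7. The levels of Sst, Npy and Chat in the Cox6a2 cells are not given here.

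These 22 neurons were also rich in the other members. Their mitochondrial share was 8.64% against 4.62%, and their nuclear share, with Cox6a2 left out, 5.69% against 3.48%. They were deeper, with a median of 5850.5 UMIs against 3260. The 328 neurons without Cox6a2 and with at least 4000 UMIs (median 5586) had shares of 4.14% and 3.95%. Within mice, the mitochondrial share was higher in the Cox6a2 cells in 7 of 8 and the nuclear share in 8 of 8, from 1 to 7 such cells per mouse. Cox6a1, the general form, was not displaced in them, at 2076 against 1072 CPM, and Ndufa4 reached 6274 against 2369. No test was made, since the cells were picked by one member and 22 cells are few.

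**Figure D3:**
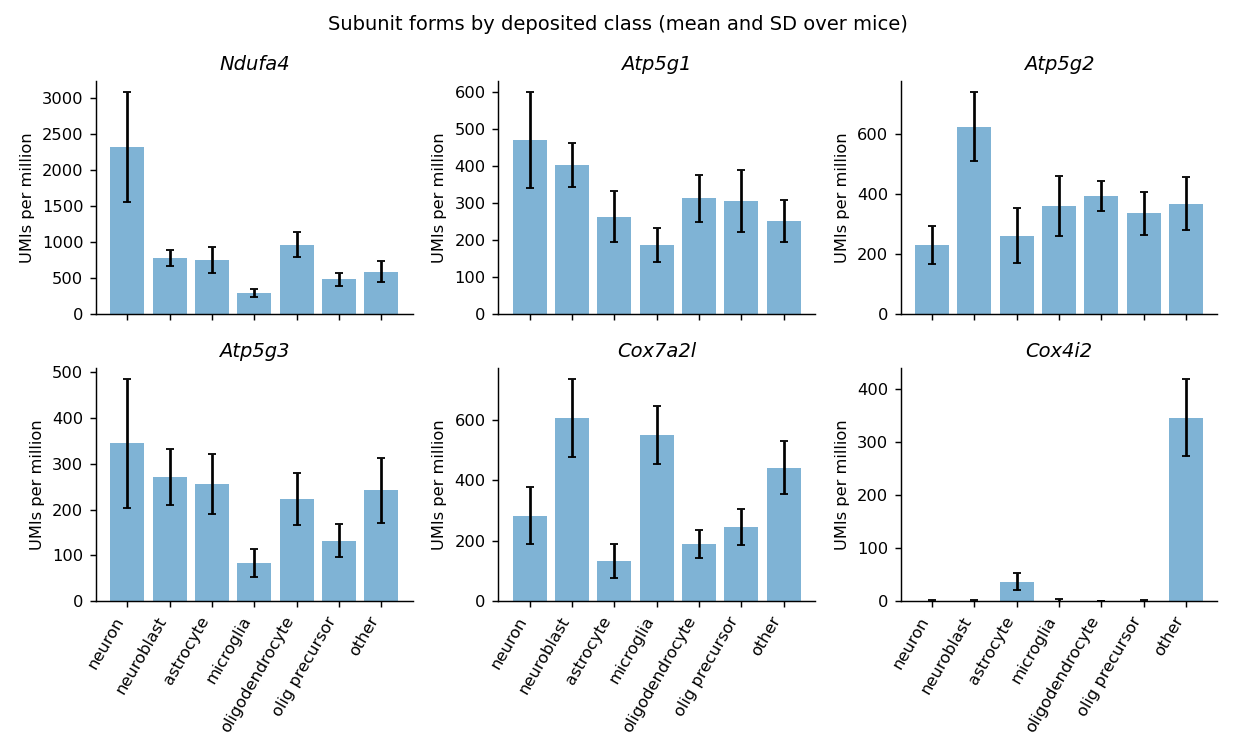
Levels of members that come as isoform families, by deposited class, in CPM, mean over mice with SD. Cox4i2 is highest in the class other, Atp5g2 in neuroblasts and Ndufa4 in neurons.

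Promoters were looked up for the nuclear members because nuclear respiratory factor 1 (NRF1), ETS-family factors and YY1 are known regulators of such genes. RefSeq windows (GRCm38.p6) of 300 bases, 250 before and 50 after the start, were found for 65 of the 81, as 70 promoters. On either strand, the NRF1 letters GCATGCG occurred in 11 of 70 (15.7%) against 3.58% of 32851 promoters of all genes, the ETS letters CCGGAAG in 16 (22.9% against 8.86%) and the YY1 letters GATGGCG in 11 (15.7% against 3.49%). The NRF1 letters overlap their own reverse complement, and the other motifs can lie in the same promoter. Promoters of 3 members are printed to show where the letters lay, from the gene's own strand, 250 bases up to the start, with the matched letters or their reverse complement in capitals.
Atp5g2, chr15:102671048-102671297, minus strand, NRF1 letters: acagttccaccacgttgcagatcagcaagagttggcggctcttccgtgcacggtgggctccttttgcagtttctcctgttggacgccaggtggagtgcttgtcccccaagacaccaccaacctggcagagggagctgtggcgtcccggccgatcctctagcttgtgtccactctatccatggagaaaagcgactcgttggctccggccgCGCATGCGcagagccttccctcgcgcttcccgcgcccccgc
Cox6a1, chr5:115348959-115349208, minus strand, NRF1 and ETS letters: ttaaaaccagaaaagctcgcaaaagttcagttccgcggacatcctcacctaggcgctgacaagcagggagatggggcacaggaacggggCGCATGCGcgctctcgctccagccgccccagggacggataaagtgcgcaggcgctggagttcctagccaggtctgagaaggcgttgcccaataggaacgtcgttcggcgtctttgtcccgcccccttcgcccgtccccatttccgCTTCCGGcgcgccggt
Atp5j, chr16:84834977-84835226, minus strand, NRF1, YY1 and ETS letters: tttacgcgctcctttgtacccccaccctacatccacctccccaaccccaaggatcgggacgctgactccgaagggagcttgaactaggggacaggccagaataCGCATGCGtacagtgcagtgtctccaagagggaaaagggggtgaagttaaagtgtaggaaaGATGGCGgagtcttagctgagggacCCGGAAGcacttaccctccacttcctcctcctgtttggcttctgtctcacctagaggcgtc

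A match is a description of letters and says nothing of binding in these cells.

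The drugs were then compared with placebo and with each other, class by class, with UMIs summed per mouse. No member passed an adjusted p of 0.05 (edgeR quasi-likelihood test, Benjamini-Hochberg over all genes of a class) in any class or comparison, and DESeq2 called 0 members too. The background was as sparse: 0.00872% of 22924 gene and class pairs were called for haloperidol against placebo, 0.0218% for olanzapine against placebo and 0% for haloperidol against olanzapine. At an unadjusted p under 0.05, 4 of 86 mitochondrially encoded and 13 of 517 nuclear member and class pairs passed for haloperidol, against 4.47% of all pairs. For olanzapine 5 of 86 and 16 of 517 passed, against 4.66%, and for haloperidol against olanzapine 6 of 86 and 7 of 517, against 3.97%. Member shares for the nuclear genes were below the background in each comparison. The mitochondrially encoded shares, 4.65%, 5.81% and 6.98%, were above it by few pairs, which share cells and mice.

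With all mice kept, the 2 genomes leaned in opposite directions in neurons under both drugs, while the shares of each drug group overlapped those of placebo. For haloperidol, 12 of 13 mitochondrially encoded genes had a fold change above 0 (49% of all 4445 genes), with a median log2 value of 0.40. Of the nuclear members, 61 of 75 were below 0 (51% of all genes), with a median of -0.11, where the median of all genes was -0.01. For olanzapine, 12 of 13 were above 0 (51.2% of all genes, median 0.46) and 45 of 75 below (48.8%, median -0.05). Both comparisons share the placebo mice.

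Single mice differed more than the groups did. Mitochondrial UMIs made up 4.31%, 4.71%, 2.94%, 3.72% and 4.76% of the neuronal total in placebo mice 1 to 5. In haloperidol mice they made up 7.28%, 4.81%, 4.09%, 5.98% and 4.31%, and in olanzapine mice 8.27%, 4.37%, 5.43%, 5.14% and 4.26%. Haloperidol 1 and olanzapine 1 stood highest, and the groups overlapped. Without haloperidol 1 the median of the mitochondrially encoded genes was 0.18 in place of 0.40, and without olanzapine 1 it was 0.19 in place of 0.46.

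The nuclear share of neuronal UMIs was 1.98% in haloperidol 1, 2.03% in olanzapine 1 and 2.23% in olanzapine 3, against 3.10% to 4.17% in the other 12 mice. The same 3 mice had the lowest summed level of mitochondrial ribosome genes in neurons (4162, 4191 and 5152 CPM, against 5905 to 7741) and of assembly factors (2560, 2312 and 2500, against 3091 to 3899). RNA known to stay in the nucleus (Malat1, Meg3, Neat1 and Snhg11) held 14.0%, 11.1% and 14.8% of their neuronal UMIs, and 12.3% in haloperidol 2, against 5.65% to 10.3% in the other 11 mice. Across 15 mice, which share the total each value is divided by, the nuclear member share and the nuclear-retained share had a Pearson r of -0.80 (Spearman rho -0.69, and r -0.77 without haloperidol 1 and olanzapine 1). The mitochondrial and nuclear shares had an r of -0.73 (rho -0.47), but -0.28 without those 2 mice, so that relation rests on them. The mitochondrial and nuclear-retained shares had an r of 0.59 (rho 0.70, and r 0.46 without those 2 mice). Without the 4 mice over 11% of nuclear-retained RNA, a choice made after seeing the data, the neuronal medians were 0.19 for the mitochondrially encoded genes under haloperidol and 0.14 under olanzapine, and -0.02 and 0.10 for the nuclear members. The part of this RNA in the results was not tested otherwise.

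**Figure D4:**
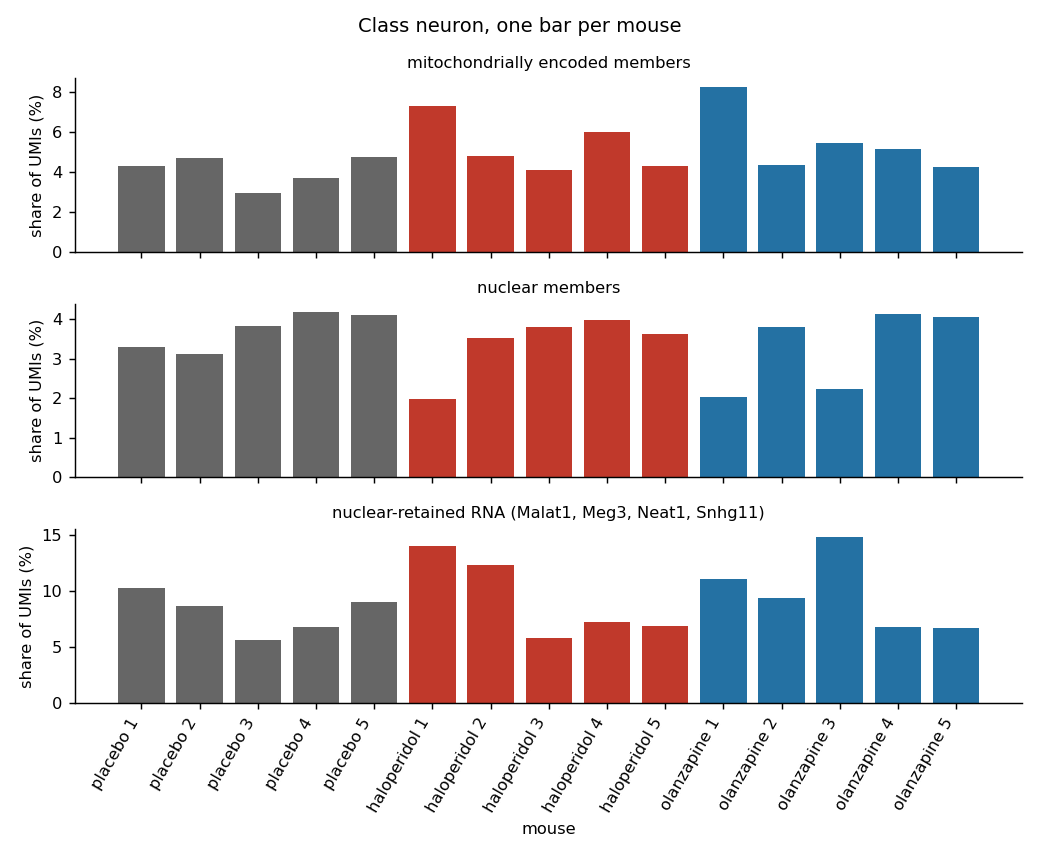
Shares of neuronal UMIs by mouse and drug for the mitochondrially encoded genes, the nuclear members and nuclear-retained RNA, in percent. Each bar is 1 mouse. Haloperidol 1, olanzapine 1 and olanzapine 3 are low for nuclear members, at 1.98% to 2.23%.

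By complex, haloperidol gave neuronal fold changes below 0 for 28 of 35 complex I, 4 of 4 complex II, 8 of 8 complex III, 9 of 13 complex IV and 12 of 15 complex V nuclear members. With olanzapine the counts were 25 of 35, 3 of 4, 4 of 8, 6 of 13 and 7 of 15, with complex I at a median of -0.14 and complexes III to V close to 0. The 9 genes listed as core, with Ndufa4 counted among them, went both ways. Under haloperidol they lay between -0.31 ± 0.29 (SE) for Ndufs1, an iron-sulfur subunit of complex I, and 0.15 ± 0.29 for Ndufv1, its NADH-binding partner. Under olanzapine they lay between -0.44 ± 0.29 for Ndufa4 and 0.27 ± 0.23 for Sdha, the flavin-carrying subunit of complex II. Ndufs1 under haloperidol was -0.64 without the 4 mice over 11% of nuclear-retained RNA, and Ndufa4 under olanzapine was -0.06. Other genes of the pathway, listed with earlier results known, had no call either. Mitochondrial ribosome genes were below 0 in 41 of 63 under haloperidol and 34 of 63 under olanzapine, assembly factors in 19 and 18 of 26. Glycolysis genes were above 0 in 4 of 16 under haloperidol and 15 of 16 under olanzapine (medians -0.05 and 0.16).

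Single neuronal genes had wide spreads. mt-Nd4, a proton-pumping subunit of complex I, was at 3158, 3578, 1942, 2873 and 3797 normalised CPM in placebo mice 1 to 5. It was at 7186, 4548, 3004.5, 4839 and 3343 in haloperidol mice and at 7868, 3191, 4784, 4104 and 3550 in olanzapine mice. Both drug groups reached above placebo in some mice and overlapped it in others. The log2 fold changes were 0.58 ± 0.28 for haloperidol (edgeR adjusted p = 0.999) and 0.61 ± 0.28 for olanzapine (adjusted p = 0.653), and they were 0.33 without haloperidol 1 and 0.32 without olanzapine 1.

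Ndufc2, an accessory subunit of complex I, was at 1259, 1247, 934.4, 946.8 and 1290 in placebo neurons and at 373.2, 660.7, 346.9, 926.3 and 1023 in olanzapine neurons. Olanzapine 1 and olanzapine 3 were lowest, and olanzapine 5 lay within the placebo range. The log2 difference was -0.74 ± 0.27 (edgeR adjusted p = 0.599), and -0.37 without the 4 mice over 11% of nuclear-retained RNA. Ndufs8, a core iron-sulfur subunit of the same complex, differed by -0.57 ± 0.24 (edgeR adjusted p = 0.606), and by -0.36 without those 4 mice.

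In neuroblasts the haloperidol comparison leaned the same way as in neurons, with 12 of 12 mitochondrially encoded genes above 0 (49.2% of all genes, median 0.35) and 49 of 73 nuclear members below (50.8%, median -0.09). Olanzapine gave 8 of 12 above 0 (48.2% of all genes, median 0.04). mt-Nd2, a complex I subunit, had the smallest unadjusted p of the mitochondrial genes for haloperidol against placebo. It was at 483.9, 675.6, 455.4, 743.3 and 710.4 in placebo neuroblasts, at 1498, 529.2, 912.7, 814.8 and 905.4 in haloperidol mice and at 523.8, 529.0, 702.6 and 786.9 in the 4 olanzapine mice with enough cells. Of the haloperidol mice, 4 lay above every placebo mouse and haloperidol 2 lay among them. The log2 difference from placebo was 0.63 ± 0.21 (edgeR adjusted p = 0.999), and 0.40 without haloperidol 1. mt-Co1, mt-Cytb and mt-Atp6 differed by 0.44 ± 0.19, 0.35 ± 0.17 and 0.35 ± 0.17 in the same comparison.

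In astrocytes the nuclear members leaned below placebo under both drugs, 62 of 76 for haloperidol (50.6% of all 4554 genes, median -0.13) and 65 of 76 for olanzapine (52.6%, median -0.13). The medians of all genes were -0.01 and -0.02. Placebo 5 stood apart upward there, with a nuclear share of 3.65% against 2.64% to 2.78% in the other placebo mice. The mitochondrially encoded genes were above 0 in 11 of 12 and 10 of 12 (49.4% and 47.4% of all genes), with medians of 0.15 and 0.19. Olanzapine 1 had 7.62% mitochondrial UMIs in astrocytes against 4.00% to 4.46% in the other olanzapine mice, and without it the olanzapine median was -0.0023.

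Uqcrc1, a core subunit of complex III, had the smallest unadjusted p of the nuclear members in the comparison of haloperidol with placebo. It was at 423.0, 247.2, 264.8, 389.2 and 341.6 normalised CPM in placebo astrocytes, at 179.0, 189.1, 229.9, 238.3 and 179.6 with haloperidol and at 339.0, 294.0, 312.8, 312.8 and 280.0 with olanzapine. Every haloperidol mouse lay below every placebo and every olanzapine mouse. The log2 difference from placebo was -0.70 ± 0.22 (edgeR adjusted p = 0.999). Non-overlapping groups with haloperidol lower occurred in 0.417% of the 4554 astrocyte genes (19 genes). Leaving out any 1 mouse gave -0.77 to -0.59.

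The class labelled olig precursor gave a similar value for Uqcrc1. Its levels were 138.7, 74.6 and 118.8 in haloperidol 1, 3 and 4 and 244.5, 217.4 and 174.9 in placebo 1, 4 and 5, a log2 difference of -1.10 ± 0.34 (edgeR adjusted p = 0.585) from as few as 6 UMIs in a mouse. These groups did not overlap, but with 3 mice against 3, haloperidol lay wholly below placebo in 6.66% of the 2372 genes of that class. In neurons the difference was -0.04 ± 0.25. Atp5b was apart from placebo in both oligodendrocyte-lineage classes under haloperidol, by -0.95 ± 0.35 in the class labelled olig precursor and -0.45 ± 0.21 in the class labelled oligodendrocyte (edgeR adjusted p = 0.585 and 1.00). Without placebo 1, whose 639.4 was the highest value against 336.1 and 333.9 in placebo 4 and 5, the first of these was -0.48. In the class labelled oligodendrocyte, haloperidol lay wholly below placebo in 1.21% of 3485 genes.

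mt-Co1 was at 5372, 6042, 6735, 6991 and 7268 in placebo astrocytes and at 15041, 9566, 7788.5, 7421 and 7270 in olanzapine astrocytes. The groups did not overlap, but olanzapine 5 and placebo 5 were nearly level, and olanzapine 1 stood far above. Olanzapine lay wholly above placebo in 0.22% of the 4554 astrocyte genes (10 genes). The log2 difference was 0.53 ± 0.21 (edgeR adjusted p = 0.999), and 0.29 without olanzapine 1. As a share of astrocyte mitochondrial UMIs, which does not move with the mitochondrial total, mt-Co1 was 15.9% ± 0.770 in placebo (14.9% to 16.9%), 17.6% ± 1.62 in haloperidol (from 15.5%) and 19.2% ± 1.55 in olanzapine mice (17.2% to 21.0%). Olanzapine lay wholly above placebo on this scale, which was looked at after the counts. The share uses the same mt-Co1 UMIs, and mt-Co1 was named for its small unadjusted p in this comparison. It is therefore no separate support. How many other mitochondrially encoded genes did so on this scale is not given here. In neurons the means were 11.2%, 10.7% and 10.6%.

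Whether a drug acted differently in neurons and astrocytes was tested directly, within mice. The mitochondrially encoded genes had a larger log2 fold change in neurons for 13 of 13 under haloperidol (median difference 0.26) and 11 of 13 under olanzapine (median 0.31), against 46.5% and 50.9% of all 5711 genes. No member and no other gene was called (0% in both, edgeR adjusted p), with 211 and 230 genes at an unadjusted p under 0.05, of which 0 and 1 were members.

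**Figure D5:**
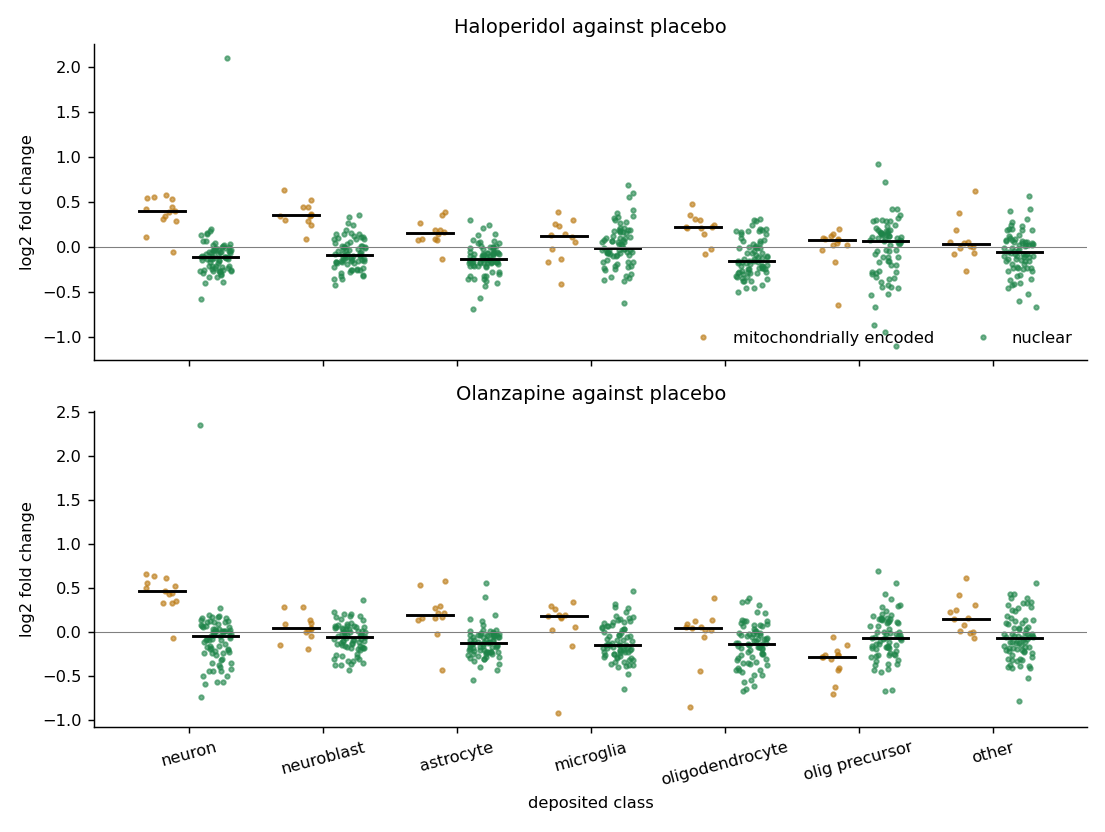
Log2 fold change of each member against placebo, by class and drug, with the 2 genomes apart; each point is 1 gene and lines mark the medians. Medians of the mitochondrially encoded genes are above 0 except under olanzapine in the class labelled olig precursor.

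The other classes varied in their lean. In the class labelled oligodendrocyte, the mitochondrial share was 2.44% ± 0.436 under haloperidol (n = 4), 2.12% ± 0.221 under olanzapine (n = 3) and 2.05% ± 0.332 in placebo (n = 4). Its nuclear share was 2.69% ± 0.184, 2.59% ± 0.268 and 2.97% ± 0.291 in the same order. Each drug group overlapped placebo in both shares. In microglia, 8 of 12 mitochondrially encoded genes were above 0 for haloperidol (48.1% of all genes, median 0.12) and 10 of 12 for olanzapine (49.3%, median 0.18).

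In the class labelled olig precursor, 13 of 13 mitochondrially encoded genes were below 0 for olanzapine (48.6% of all genes), with a median of -0.28, while haloperidol gave 10 of 13 above (49.6%) and a median of 0.08. mt-Nd1 was at 3683, 3921, 3781 and 4989 in olanzapine mice 2 to 5, at 5642, 5990 and 4977 in placebo 1, 4 and 5, and at 6055, 5261 and 5613 in haloperidol 1, 3 and 4. Olanzapine lay below every haloperidol mouse and overlapped placebo only through olanzapine 5. The log2 differences were -0.43 ± 0.20 from placebo (edgeR adjusted p = 0.999) and, for haloperidol against olanzapine, 0.46 ± 0.20 (adjusted p = 0.776).

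In the class other, Ndufa8, an accessory complex I subunit, was at 385.2, 464.6, 446.8, 252.9 and 323.2 in placebo mice. It was at 134.2, 275.1, 144.3 and 240.3 in olanzapine 2 to 5 and at 201.6, 313.4, 218.1 and 141.2 in haloperidol 2 to 5. Placebo 4 kept each drug group from standing wholly apart. The differences were -0.79 ± 0.26 for olanzapine (edgeR adjusted p = 0.349, the smallest adjusted p of any member) and -0.66 ± 0.26 for haloperidol (adjusted p = 0.808). Levels rested on as few as 6 UMIs in a mouse.

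Over all classes, a drug group and placebo did not overlap for 13 of 517 nuclear member and class pairs with haloperidol below placebo (1.5% of all 22924 pairs) and for 12 of 517 with olanzapine below placebo (1.31%). In the upward direction the counts were 7 (1.57%) and 4 (1.07%). Of the 86 mitochondrially encoded pairs, 0 and 1 were apart upward and 0 and 1 downward. The downward counts are 2.51% and 2.32% of the nuclear pairs, which share cells and mice, and the difference from the background was not tested.

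5 genes outside the list followed the mitochondrial level of neurons most closely over the 15 mice, among 4891 compared. Their Pearson r of log2 levels were 0.90 for Sez6l2, 0.88 for Lrrc7, 0.86 for Eif4g3, 0.82 for Nbea and 0.81 for Ntrk2. The Spearman rho values were lower, at 0.80, 0.79, 0.77, 0.61 and 0.68 in that order. The mice share the depth and the RNA make-up described above.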

How the data were processed

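Per the labels' protocols, striatal slices were triturated, dead cells were removed, and each mouse was loaded into its own well of a 10x Genomics Chromium Controller (3′ kit, version 2). The submitters' processing notes name Cell Ranger, Seurat and mm10, without version numbers. The authors deposited whole-number UMI counts per gene and cell, with lines that name each cell's mouse, drug and class. The drug matched the labels for 5581 of 5581 cells, and every cell had at least 501 genes, so filtering preceded deposit. All cells were kept, because a mitochondrial filter would select on the members.

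Counts were summed per mouse and class (at least 10 cells) and tested where at least 3 mice per group remained, with all groups of a class fitted together. The tool was edgeR 4.0.16 (R 4.3.3), with its filterByExpr filter, TMM factors and the robust quasi-likelihood F test, two-sided, at an adjusted p of 0.05. The adjustment is Benjamini-Hochberg within a class and comparison. CPM values given per mouse beside a fold change are TMM-scaled, and other levels are plain CPM of the class sum. Fold changes are log2 with SE. The script was tested on simulated data. Depth was 80 to 1189 cells per mouse. The chi-square per degree of freedom between mice of a group was 3.38 to 24.6 over 30 pairs, beyond counting error, so every mouse was counted once.

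The members and lists were chosen with earlier results of these data known. Named members are those with the smallest p per genome and comparison (up to 5), all mitochondrially encoded genes for levels, the isoform families, core subunits and the 5 genes most like the mitochondrial level. The values of 1 member that this rule names are not reported here. Alternatives tried were DESeq2 1.42.0, no TMM, no filter on low counts, library size without mitochondrial UMIs, fits of only the 2 groups compared, adjustment over all classes, at least 20 cells, removal of cells over 20% mitochondrial or of doublets (Scrublet in scanpy 1.11.5), no classes, and leaving out mice.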

Additional observations from a re-analysis of the deposited data

Results flagged for a closer look

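In groups of 4 to 10 mice, a mouse was marked where its gap to the nearest other mouse was large for the range of its group. This happened in 10 of 117 groups tested, and chance marks about 1 in 20. Placebo 3 was low in the mitochondrial share of all its cells (2.51%, the other placebo mice 3.11% to 3.34%) and of its neuroblasts (1.35%, others 2.16% to 2.46%). Its neuroblasts were also low in mt-Cytb (1351 normalised CPM, others 2285 to 2532), and its neurons in the ATP synthase subunit Atp5a1 (219.9, others 320.1 to 349.8). Placebo 5 was high in the nuclear share of all cells (3.26%, others 2.65% to 2.80%) and of astrocytes (3.65%, others 2.64% to 2.78%), and in neuronal Ndufa4 (3268, others 2410 to 2491). Both are mice of the control group against which each drug was compared.

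Olanzapine 1 stood high in the mitochondrial share of astrocytes (7.62%, others 4.00% to 4.46%). Haloperidol 1 stood low in the nuclear share of neurons (1.98%, others 3.52% to 3.98%). Haloperidol 2 was high in neuronal Sdhb, the iron-sulfur subunit of complex II (259.6, other haloperidol mice 175.9 to 193.9).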

How the results depend on the processing

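No paired analysis was possible because the labels number the mice 1 to 15 across the groups, so that no number is shared. Members called stayed at 0 under every alternative that was run, leaving out single mice included, and 38 of 48 named fold changes kept their sign throughout. Over all genes, called pairs moved from 2 for haloperidol against placebo to 15 with no filter on low counts, 1 without TMM factors, 1 with only the 2 groups fitted, and 0 when classes were ignored or with adjustment over all classes (0 to 2 leaving out a mouse). For olanzapine they moved from 5 to 66 with no filter. They were 26 with at least 20 cells or without the mice numbered 1 to 4 in the labels. They were 10 without doublets (also with the mitochondrial filter), 9 with DESeq2 and 1 without the 4 mice over 11% of nuclear-retained RNA. They were 0 with classes ignored or adjusted over all classes, and 0 to 11 leaving out a mouse. Haloperidol against olanzapine went from 0 to 33 with no filter (0 to 1 leaving out a mouse), and the neuron against astrocyte test for olanzapine from 0 to 3 with at least 20 cells. The cause of these moves was not tested. Of the 81 cells marked as doublets, 38 came from olanzapine 2, which had 128 cells, so that removal fell mostly on few mice. Without the 4 mice, the olanzapine median of the mitochondrially encoded genes was 0.14 in neurons and -0.056 in astrocytes. In the class labelled oligodendrocyte, the median of the nuclear members was -0.25 for haloperidol with no filter on low counts. Leaving out a mouse gave -0.18 to -0.030 there, -0.21 to -0.086 for olanzapine and 0.0044 to 0.14 between the drugs. The nuclear median of neuroblasts between the drugs was -0.016, and -0.038 without TMM factors, -0.092 with no filter, 0.0057 without doublets (also with the mitochondrial filter), 0.015 with at least 20 cells and -0.036 to 0.032 leaving out a mouse. The mitochondrial median of the class labelled olig precursor between the drugs was 0.22 to 0.47 leaving out a mouse. The median over single cells was mostly lower than the share of summed UMIs. For mitochondrial genes it was 3.61% in placebo astrocytes, 1.42% in haloperidol microglia, 1.71% in the placebo class labelled oligodendrocyte, 5.02% in the haloperidol class labelled olig precursor, 2.06%, 2.26% and 2.11% in the class other (placebo, haloperidol, olanzapine), and 2.38% and 2.91% in all cells of placebo and olanzapine mice. For nuclear members it was 3.03% and 2.57% in neurons (placebo, haloperidol), 2.68% and 2.73% in neuroblasts (haloperidol, olanzapine), 2.41% in the haloperidol class labelled olig precursor, and 2.58% and 2.28% in all cells (placebo, haloperidol). With nuclear-genome UMIs as the denominator, the share was 2.99% in olanzapine neuroblasts and 2.65% in the haloperidol class labelled olig precursor. Neuronal fold changes near 0 turned sign. For haloperidol, Ndufa4 was 0.010 without the mice numbered 1 to 4 and 0.011 without the 4 mice over 11% of nuclear-retained RNA. Sdha was 0.025 and 0.019 likewise. Atp5a1 was 0.0091 without doublets, 0.0029 with the mitochondrial filter added and 0.0056 with 2 groups fitted. For olanzapine, Sdhb was 0.00052 without TMM factors, 0.0047 with the mitochondrial filter, 0.012 with at least 20 cells and 0.072 without the 4 mice. Uqcrfs1 was -0.013 without mitochondrial UMIs in the library size, -0.061 without doublets, -0.049 with the mitochondrial filter added and -0.0094 without the haemoglobin-rich cells, and Atp5a1 was -0.014 and -0.0055 with the doublet and the joint filter. Leaving out a mouse gave, for haloperidol, Sdhb -0.23 to 0.00058, Atp5b -0.31 to 0.028, Uqcrc1 -0.30 to 0.066, Sdha -0.17 to 0.059 and Atp5a1 -0.12 to 0.061, and for olanzapine Sdhb -0.13 to 0.10, Uqcrfs1 -0.14 to 0.26 and Ndufv1 -0.033 to 0.33. The alternatives without the 4 mice and without the haemoglobin-rich cells were chosen after seeing the data. Levels of single members rested on as few as 6 UMIs in a mouse and class, and mice of a group differed beyond counting error. Which of depth and the spread between mice limited the calls was not tested.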
